A study of Homo sapiens with 6 samples.

Results

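Cystine import, glutathione synthesis and the enzymes that remove lipid peroxides were followed through 10 named genes (SLC7A11, SLC3A2, GCLC, GCLM, GSS, GSR, GPX4, AIFM2, TXNRD1 and NFE2L2) in CAOV2 ovarian cancer cells. The genes were chosen by name, and all 10 were found among the 17211 genes of the deposited table. The siYAP group held 3 libraries of cells transfected with a Dharmacon siRNA reagent against YAP. The siNT group held 3 libraries of cells given the AllStars non-targeting control. Every culture received 100 pmol siRNA with 6 µL of RNAiMAX for 2 days and was harvested at day 3, and the labels describe no other allele or agent. The labels name CAOV2 as a cell line and also call the cells primary. Both reagents come from different suppliers, so the loss of YAP and other effects of a reagent cannot be told apart. The labels number the libraries as biological replicates without giving a passage or day, so the p-values cover only their spread, which may be technical. In bulk RNA, fewer cells of a type and less RNA per cell cannot be told apart.

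Cells take up cystine, the oxidised form of cysteine, through system xc-, a pair of SLC7A11 and SLC3A2 that exports glutamate in exchange. Cystine is reduced to cysteine, which limits the making of glutathione, and GPX4 uses glutathione to reduce phospholipid peroxides. Ferroptosis is the iron-dependent death that follows when these peroxides build up. AIFM2, also called FSP1, protects membranes without GPX4 by regenerating reduced ubiquinone, and NFE2L2 encodes NRF2, the transcription factor that drives many genes of this defence.

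Whole reads behind the values came to between 29029760 and 31790340 per siYAP library and between 25478595 and 28928432 per siNT library. Values are read counts divided by 1 size factor per library, called normalized counts here. YAP1 itself had 278, 327 and 294 normalized counts in the siYAP libraries, against 6221, 5801 and 5955 in the siNT libraries, which is 5.00% of the siNT level. Its paralog WWTR1 (TAZ) was at 56.4% of the siNT level. Among 13 ovarian carcinoma and epithelial markers 10 were listed, of which 2 were higher, 4 lower and 4 not called. Over all tested genes 28.6% were called higher and 28.1% lower. The summed level of these 10 markers was 73116 to 79487 normalized counts in siYAP libraries and 97263 to 105670 in siNT libraries. KRT8 was abundant (33087 ± 1778 normalized counts in siYAP and 35206 ± 1349 in siNT; SD, n = 3 each), while the ovarian markers PAX8 and MUC16 were low in both groups (means of 11.9 to 28.8 normalized counts). The summed level of the 5 listed fibroblast markers of 8 was 13064 to 13559 normalized counts in siYAP libraries and 4592 to 5331 in siNT libraries. It was carried by LUM and COL3A1, and the collagen gene COL1A2 was at a mean of 1.25 in siYAP and 12.6 in siNT. Of the 5 fibroblast markers 3 were called higher and 2 lower. The 3 listed immune markers of 10 (CD79A, CD14 and LYZ) summed to 107 to 128 in siYAP and 137 to 162 in siNT. Of these 3, 1 was called higher and 2 were called lower by at least 2-fold. The 1 listed endothelial marker of 7, ESAM, stood at 1261 to 1338 normalized counts in siYAP and 1673 to 1873 in siNT. None of the 6 erythroid markers was listed. Single markers are named here as examples, outside the rule by which genes of the pathway lists were named. They do not stand for their lists, and the genes that carry the lower ovarian and epithelial sum are not given. The part of these markers in the results below was not tested.

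Of the 10 genes, 3 were higher in siYAP (SLC7A11, GCLC and AIFM2), 4 were lower (SLC3A2, NFE2L2, TXNRD1 and GSS) and 3 were not called (GPX4, GCLM and GSR). The test was limma on log2(normalized count + 1), with Benjamini-Hochberg adjustment over all 17200 genes tested and a threshold of 0.05. A call is common in this contrast: 56.8% of all tested genes passed, 28.6% higher and 28.1% lower, so 7 calls among 10 genes are near that background. The sizes set SLC7A11 apart from the other 9 genes. It was 3.89-fold higher on this scale, and a larger absolute log2 fold change was seen in 2.01% of all tested genes. Over the 10 genes the median absolute log2 fold change was 0.18, against 0.30 over all tested genes. In 8 of the 10 genes the siYAP and siNT libraries did not overlap, against 61.5% of all tested genes. With edgeR on the recovered reads, which called 61.2% of its tested genes, and with DESeq2, which called 51.0%, the same genes were called except GSS.

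**Figure D1:**
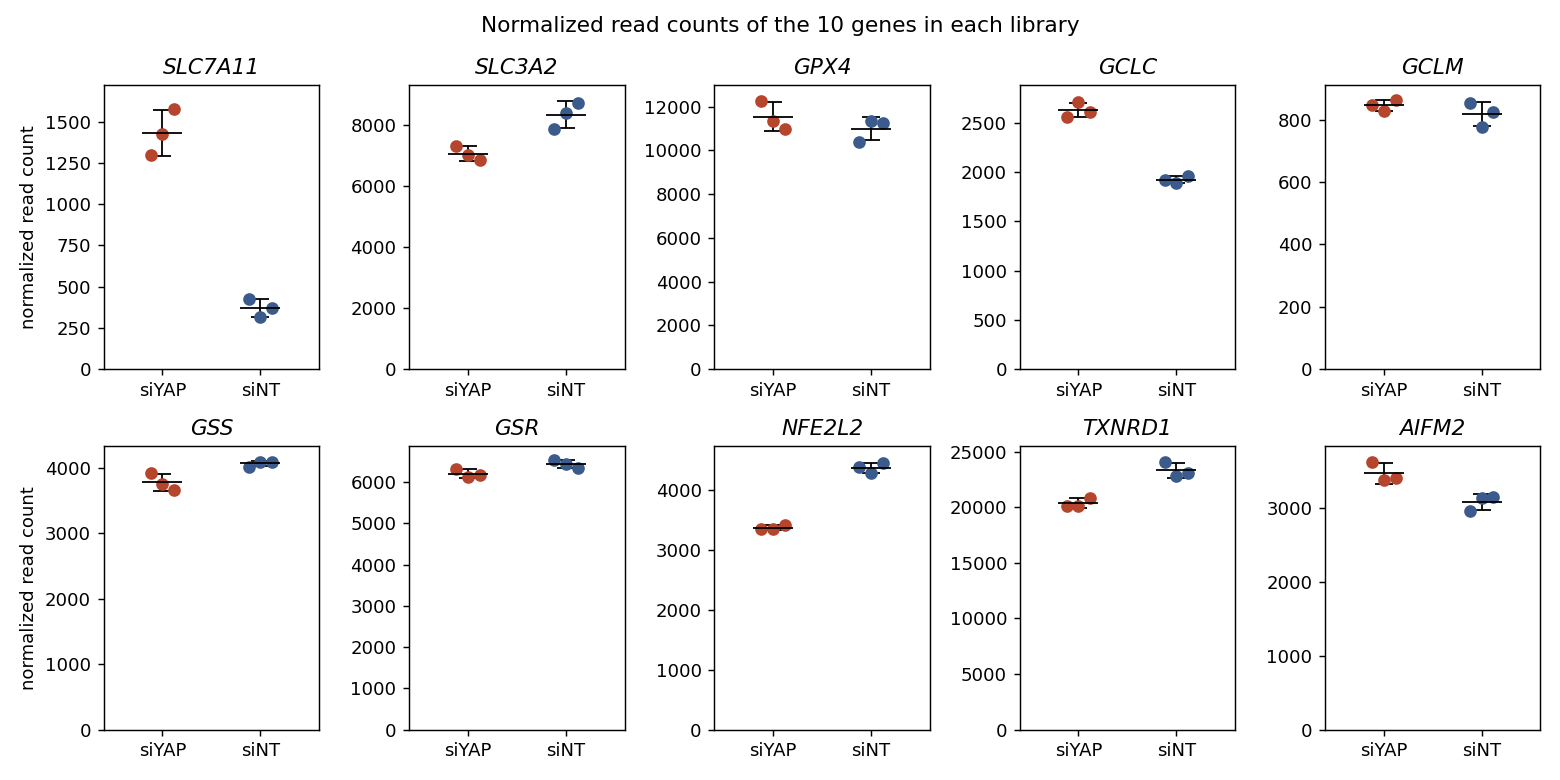
Normalized read counts (vertical axes, from 0) of the 10 genes, with 1 point per library, siYAP left and siNT right, and bars for the mean and SD of 3 libraries. The SLC7A11 libraries lay between 1301 and 1580 in siYAP and between 316 and 423 in siNT, whereas the other 9 genes lay at 77.1% to 136.7% of their siNT mean.

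SLC7A11, the transporting light chain of system xc-, showed the largest difference of the 10. Its normalized counts were 1301, 1425 and 1580 in siYAP libraries 1, 2 and 3, against 423, 316 and 370 in siNT libraries 1, 2 and 3. All siYAP libraries thus lay above all siNT libraries by a wide margin. The means were 1435 ± 140 in siYAP and 369.7 ± 53.3 in siNT (SD, n = 3 each), which gives log2 1.96 (standard error 0.0863, limma adjusted p = 2.59e-14). SLC7A11 was also the most variable of the 10 genes within a group, with an SD of 9.72% of the mean in siYAP and 14.4% in siNT. The gene lies on chromosome 4 from 138164097 to 138242349 on the minus strand (GRCh38, GENCODE 29), and no other listed gene overlaps it there.

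SLC3A2 (CD98 heavy chain), the partner that brings SLC7A11 and several other light chains to the cell surface, went the other way. It had 7332, 7025 and 6861 normalized counts in siYAP, against 7865, 8414 and 8742 in siNT. The highest siYAP library stayed below the lowest siNT library. Its log2 fold change was -0.24 (standard error 0.0458, limma adjusted p = 0.000131), a level of 84.8% of siNT. The ratio of SLC7A11 to SLC3A2 counts within a library was 0.177, 0.203 and 0.230 in siYAP, against 0.0538, 0.0376 and 0.0423 in siNT. This ratio does not depend on the size factors, and its mean was 4.57 times as high in siYAP. The exact permutation test, two-sided, gave p = 0.1, the smallest that 3 against 3 libraries allow.

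Glutathione is made in a first step by glutamate-cysteine ligase, built from the catalytic subunit GCLC and the modifier subunit GCLM, and in a second step by glutathione synthetase, GSS. GCLC rose, with 2566, 2709 and 2618 normalized counts in siYAP, against 1925, 1890 and 1960 in siNT. The groups did not overlap, and the log2 fold change was 0.45 (standard error 0.0468, limma adjusted p = 3.16e-08). GCLM had 848, 829 and 864 normalized counts in siYAP, against 854, 776 and 825 in siNT. Its groups overlapped, and the log2 difference of 0.05 had a 95% interval of -0.07 to 0.17 (limma adjusted p = 0.499). The ratio of GCLC to GCLM counts was 3.03, 3.27 and 3.03 in siYAP libraries and 2.25, 2.44 and 2.37 in siNT libraries (two-sided exact permutation test, p = 0.1, again the smallest possible).

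GSS had 3925, 3752 and 3663 normalized counts in siYAP, against 4022, 4091 and 4097 in siNT. The groups did not overlap, but the gap between siYAP library 1 and siNT library 1 was small. Its log2 fold change of -0.11 passed narrowly (limma adjusted p = 0.0442), and the call was lost in 11 of 16 alternative analyses, among them edgeR (adjusted p = 0.0645), DESeq2 (adjusted p = 0.0532) and the fits without siYAP replicate 2 or 3 or without siNT replicate 2 or 3. GSR, glutathione reductase, which returns oxidised glutathione to its reduced form with NADPH, had 6313, 6113 and 6179 normalized counts in siYAP, against 6529, 6439 and 6348 in siNT. The siYAP libraries were all lower, yet the log2 difference of -0.05 was not called (95% interval -0.14 to 0.03, limma adjusted p = 0.277), and it turned to 0.03, uncalled, with equal library totals.

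GPX4, the selenoenzyme that reduces phospholipid peroxides, had 12284, 11362 and 11000 normalized counts in siYAP, against 10377, 11346 and 11243 in siNT. The groups overlapped, and the log2 difference was 0.07 with a 95% interval of -0.03 to 0.17 (limma adjusted p = 0.207). When libraries were scaled to equal totals it passed, at a log2 fold change of 0.16 (limma adjusted p = 0.00511). AIFM2 had 3633, 3379 and 3410 normalized counts in siYAP, against 2967, 3144 and 3150 in siNT. Every siYAP library was above every siNT library, with a log2 fold change of 0.17 (standard error 0.0471, limma adjusted p = 0.00387). AIFM2 overlaps the listed gene MACROH2A2 on the opposite strand, which was higher in siYAP as well (900.3 ± 29.4 normalized counts in siYAP and 622.2 ± 47.4 in siNT; SD, n = 3 each; log2 0.53). The library kit keeps strand, but whether strand was used in counting is not given in the sources used here, so reads of the pair may not be separated.

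TXNRD1, the cytosolic thioredoxin reductase and a second selenoenzyme among the 10, had 20077, 20082 and 20846 normalized counts in siYAP, against 24098, 22759 and 23046 in siNT. No siYAP library reached the siNT range, and the log2 fold change was -0.20 (standard error 0.0391, limma adjusted p = 0.000183). NFE2L2 had 3345, 3348 and 3416 normalized counts in siYAP, against 4378, 4280 and 4454 in siNT. It fell to 77.1% of the siNT level without overlap, with a log2 fold change of -0.38 (standard error 0.0432, limma adjusted p = 1.52e-07). NFE2L2 overlaps AGPS on the opposite strand, a gene of similar abundance that was not called (log2 -0.08, limma adjusted p = 0.166). Of the 3 other listed genes that overlap it, all with means under 50 normalized counts, ENSG00000213963 on the same strand was higher in siYAP (35.4 ± 1.63 normalized counts in siYAP and 16.9 ± 6.17 in siNT; SD, n = 3 each; log2 1.09, limma adjusted p = 0.00136) and the others were not called. TXNRD1 overlaps 2 genes on its own strand, RPL18AP3, which was lower in siYAP (143.4 ± 15.6 normalized counts in siYAP and 199.4 ± 26.2 in siNT; SD, n = 3 each; log2 -0.47, limma adjusted p = 0.00167), and EID3, which was not called.

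**Figure D2:**
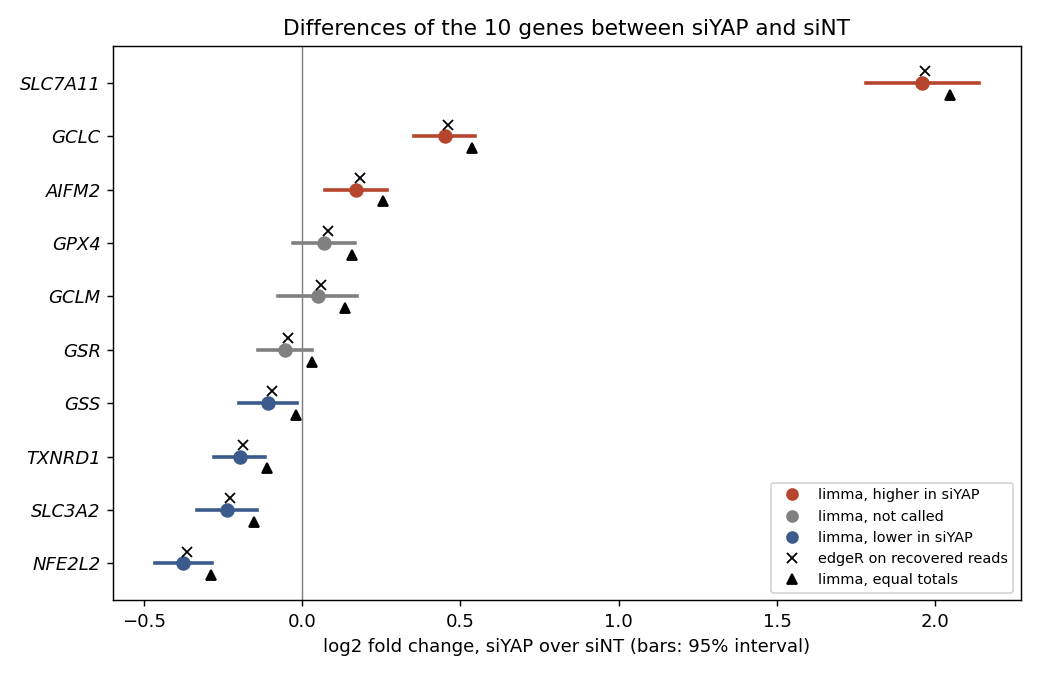
Log2 fold change of siYAP over siNT (horizontal axis) for the 10 genes, with limma values as coloured points and their 95% intervals as bars, edgeR values as crosses and limma values at equal library totals as triangles. SLC7A11 lies near 1.96, GCLC at 0.45 and the other 8 genes between -0.38 and 0.17, and equal totals move all 10 to the right.

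Levels between genes were compared per kilobase of annotated exon, with lengths from GENCODE 29, since longer transcripts give more reads. Exons of all annotated isoforms were joined, so a gene with long unused exons is understated. On this scale GPX4 was the most abundant of the 10 in both groups (5720 ± 328 normalized counts per kilobase in siYAP and 5443 ± 264 in siNT; SD, n = 3 each), followed by TXNRD1, GSR and SLC3A2. SLC7A11 was the least abundant in both, at 148.8 ± 14.5 per kilobase in siYAP and 38.3 ± 5.53 in siNT (SD, n = 3 each). In siNT every neighbouring pair in the order was separated, with GCLM, the next above SLC7A11, at 151.0 ± 7.32 per kilobase (SD, n = 3). In siYAP the libraries of GCLM (156.3 ± 3.19 per kilobase; SD, n = 3) and SLC7A11 overlapped, and no other neighbours did. AIFM2 ranked 5 and NFE2L2 ranked 7 of the 10 in siYAP, whereas AIFM2 ranked 7 and NFE2L2 ranked 5 in siNT, with GSS at rank 6 in both.

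**Figure D3:**
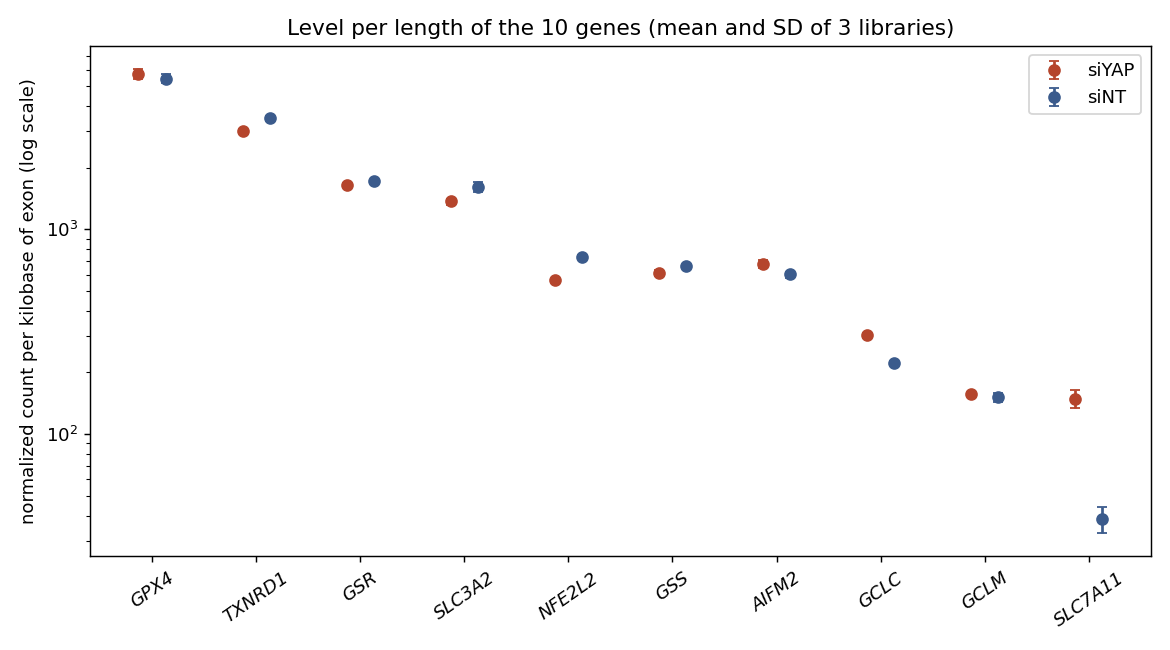
Normalized count per kilobase of exon (vertical log axis) for the 10 genes, ordered by their siNT level, with siYAP left and siNT right in each pair and bars for the SD of 3 libraries. GPX4 is highest in both groups, at 5720 in siYAP and 5443 in siNT, and SLC7A11 lies at 148.8 in siYAP, beside GCLM, and at 38.3 in siNT.

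By the smallest distance between centred log2 profiles over the 6 libraries, the genes most like SLC7A11 among 12518 other genes averaging at least 50 normalized counts were CCDC198, ELOVL7, NPY6R, ENSG00000260604 (without a symbol in the tables used) and TNS1. Their log2 fold changes lay between 1.95 and 2.07, and their distances between 0.13 and 0.26 on the log2 scale. ELOVL7 encodes a fatty acid elongase and TNS1 the focal adhesion protein tensin. None of these 5 belongs to the lists on this pathway. As only siYAP and siNT were compared, the distance rests mainly on the fold change and does not measure shared function. VLDLR, a gene of the ATF4 list described below, also had a log2 fold change of 1.95.

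NRF2 acts as a dimer with small MAF proteins at antioxidant response elements (AREs) near its target genes. The core of this element, TGACNNNGC on either strand, was searched in RefSeq promoter windows (GRCh38.p14, 250 bases before to 50 after an annotated start). There were 13 windows for 7 of the 10 genes, and SLC7A11, GSS and GSR had no entry. A match was found in 5 of these 13 windows, against 13.3% of all 35116 windows. The matched windows belong to 4 of the 7 genes, and no share per gene over all genes was computed. The matches are printed because they show which of the 10 genes carry the letters of an NRF2 element close to a start. Each is written 5′ to 3′ on the strand that reads TGACNNNGC, with the core in capitals.
SLC3A2 (chr11:62881652-62881680, plus strand): cgagggtgggTGACTCAGCgtcctccttc
AIFM2 (chr10:70132829-70132857, plus strand): gggcggggcgTGACTCAGCactcgtgctg
GCLM (chr1:93909446-93909474, plus strand): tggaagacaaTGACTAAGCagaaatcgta
TXNRD1, first start (chr12:104215670-104215698, plus strand): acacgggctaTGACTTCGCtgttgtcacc
TXNRD1, first start (chr12:104215761-104215789, minus strand): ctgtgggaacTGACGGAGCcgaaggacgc
TXNRD1, second start (chr12:104286920-104286948, minus strand): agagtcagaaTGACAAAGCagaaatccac

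SLC3A2 and AIFM2 held the same core, whose first letters, TGACTCA, are also those of an AP-1 site. Of the 4 genes with a match, AIFM2 was higher in siYAP, SLC3A2 and TXNRD1 were lower and GCLM was not called. GCLC, which rose, and NFE2L2, which fell, had no match in their windows. The amino acid response element bound by ATF4, searched as TGATGNAA, was found in 1 of the 13 windows, of SLC3A2, at 37 bases after a start on the opposite strand, against 3.62% of all windows. The TEAD core GGAATG, the element through which YAP acts, was found in 0 of the 13, against 14.0% of all windows. A match or its absence describes these windows alone.

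NFE2L2 is held in check by KEAP1, which was not called (log2 -0.11, limma adjusted p = 0.0669; KEAP1, BACH1, ATF4, NFE2L1 and the other genes marked as added below were named after their values were seen). Of 18 regulators of NRF2, all listed, 3 rose, 7 fell and 8 were not called, with a median log2 fold change of -0.10 against 0.00 over all tested genes. At equal totals 4 were higher and 5 lower, with a median of -0.016. Over all 17200 tested genes 28.6% were called higher and 28.1% lower, and at equal totals 6050 genes were higher and 3700 lower. The small MAF gene MAFF, a dimer partner, fell (371.8 ± 20.1 normalized counts in siYAP and 589.5 ± 42.1 in siNT; SD, n = 3 each; log2 -0.66). BTRC, an adaptor of a ubiquitin ligase that can degrade NRF2, rose (log2 0.63), and BRCA1 fell (log2 -0.60). BACH1, a repressor that competes for AREs, rose (log2 0.32), and NFE2L1, the related factor NRF1, fell (log2 -0.37). MAFF, BTRC and BRCA1 overlap listed genes on the opposite strand, and BRCA1, BACH1 and KEAP1 overlap listed genes on their own strand.

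Known NRF2 target genes went both ways, with more called higher than lower. Of the 37 listed of 40, 17 rose, 9 fell and 11 were not called, with a median of 0.10 (21 higher and 7 lower at equal totals), and 5 of the 37 are among the 10 genes. The shares over all tested genes were 28.6% higher and 28.1% lower. At equal totals 6050 of 17200 tested genes were higher and 3700 lower. The aldo-keto reductases AKR1C2 and AKR1C3, which reduce carbonyls and steroids, rose. AKR1C3 had 4925 ± 73.0 normalized counts in siYAP and 1475 ± 117 in siNT (SD, n = 3 each; log2 1.74), and AKR1C2 had 314.4 ± 22.8 in siYAP and 92.9 ± 10.3 in siNT (SD, n = 3 each; log2 1.75). These paralogs are close in sequence and may share reads. HMOX1, haem oxygenase, was at 550.4 ± 15.8 normalized counts in siYAP and 225.5 ± 21.3 in siNT (SD, n = 3 each; log2 1.29). By contrast the target genes TXN (log2 -0.17), FTH1 (log2 -0.25) and TKT (log2 -0.40), added after their values were seen, fell.

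SLC7A11 and SLC3A2 are also known targets of ATF4, the factor of the amino acid response. ATF4 transcript itself was lower (4102 ± 94.6 normalized counts in siYAP and 4663 ± 125 in siNT; SD, n = 3 each; log2 -0.18). Only RNA was measured, so the amount and activity of the ATF4 and NRF2 proteins are not known. In the ATF4 list of 34 genes, all listed, 16 rose, 12 fell and 6 were not called. All tested genes had shares of 28.6% higher and 28.1% lower, and at equal totals 6050 of 17200 were higher and 3700 lower. The list median was 0.08 (17 higher and 8 lower at equal totals, median 0.16). NUPR1, a stress-induced chromatin protein gene, rose most (130.4 ± 12.7 normalized counts in siYAP and 14.7 ± 1.22 in siNT; SD, n = 3 each; log2 3.06). VLDLR, a lipoprotein receptor, rose too (1256 ± 38.8 normalized counts in siYAP and 323.6 ± 12.1 in siNT; SD, n = 3 each; log2 1.95; it overlaps its antisense gene VLDLR-AS1). EIF4EBP1, a repressor of translation, fell (log2 -1.49). Among members added after their values were seen, the synthesis genes ASNS (log2 0.64) and PHGDH (log2 0.76) rose, while the stress factors DDIT3 (log2 -0.46) and ATF3 (log2 -0.25) and the pseudokinase gene TRIB3 (log2 -0.17) fell.

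Amino acid transporters other than SLC7A11 and SLC3A2 went both ways. Of these 17, 8 rose, 4 fell and 5 were not called, with a median of 0.01. Among all tested genes 28.6% were called higher and 28.1% lower. SLC3A1, the heavy chain of the renal cystine transporter, rose (348.8 ± 20.8 normalized counts in siYAP and 129.8 ± 22.6 in siNT; SD, n = 3 each; log2 1.43), although it overlaps PREPL on the opposite strand. SLC1A3, a glutamate transporter, rose (log2 1.37), as did SLC7A7, a light chain that pairs with SLC3A2 (log2 1.09). SLC7A5, the abundant light chain of the leucine transporter that also pairs with SLC3A2, was not called (log2 -0.11, limma adjusted p = 0.0565), and the glutamine carrier SLC1A5 fell (log2 -0.33); both were added after their values were seen.

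In glutathione synthesis, recycling and use, 22 of the 36 listed genes outside the 10 rose, 3 fell and 11 were not called, with a median of 0.22. The shares over all tested genes were 28.6% higher and 28.1% lower. CBS, the first enzyme of the route that makes cysteine from homocysteine, rose (571.0 ± 37.5 normalized counts in siYAP and 179.5 ± 10.6 in siNT; SD, n = 3 each; log2 1.66). CTH, which completes that route and was added after its values were seen, was not called (log2 0.12, limma adjusted p = 0.341). ABCC3, an exporter of conjugates, rose to 2264 ± 71.8 normalized counts in siYAP, against 1021 ± 38.9 in siNT (SD, n = 3 each; log2 1.15). The glutaminase gene GLS2 was low, at 55.9 ± 14.0 normalized counts in siYAP and 23.9 ± 7.23 in siNT (SD, n = 3 each; log2 1.21; it overlaps SPRYD4).

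Supply of NADPH, the reductant that GSR, TXNRD1 and AIFM2 draw on, was covered by 19 listed genes of 20, of which 13 rose, 4 fell and 2 were not called, with a median of 0.27. Among all tested genes 28.6% were called higher and 28.1% lower. ALDH1L2, a mitochondrial folate dehydrogenase, rose (log2 1.18), as did malic enzyme ME1 (log2 1.03) and isocitrate dehydrogenase IDH1 (log2 0.70). ME1 had 1693 ± 69.6 normalized counts in siYAP and 831.7 ± 41.5 in siNT (SD, n = 3 each). ALDH1L2 and IDH1 overlap listed genes on the opposite strand. PGD, an NADPH-making dehydrogenase of the pentose phosphate route that was added after its values were seen, fell (log2 -0.22).

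The thioredoxin, glutaredoxin and peroxiredoxin list had 6 of 25 listed genes higher, 10 lower and 9 not called, with a median of -0.07 that turned to 0.02 at equal totals, where 9 were higher and 6 lower. The reductase TXNRD3 rose (log2 0.66), while mitochondrial thioredoxin TXN2 (log2 -0.45) and the methionine sulfoxide reductase MSRA (log2 -0.42) fell. GPX4 and TXNRD1 both need selenocysteine. Among the 28 other listed genes of selenoproteins and their synthesis 13 rose, 7 fell and 8 were not called, with a median of 0.15. For this list and the thioredoxin list, the shares over all tested genes were 28.6% higher and 28.1% lower. At equal totals 6050 of 17200 tested genes were higher and 3700 lower. SELENOP, the secreted selenium carrier, rose to 13309 ± 437 normalized counts in siYAP, against 6466 ± 509 in siNT (SD, n = 3 each; log2 1.04; it overlaps CCDC152), and SELENOM rose (log2 0.93).

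Defence that works beside GPX4 had 6 of 31 listed genes other than AIFM2 higher, 6 lower and 19 not called, with a median of 0.02, and with AIFM2 the counts were 7 higher and 6 lower, or 14 higher and 5 lower at equal totals. NQO1, a quinone reductase and NRF2 target, rose (6743 ± 223 normalized counts in siYAP and 4011 ± 44.8 in siNT; SD, n = 3 each; log2 0.75). SC5D, which makes the sterol 7-dehydrocholesterol, rose (log2 0.71), and so did GCHFR, the feedback regulator of tetrahydrobiopterin synthesis (log2 0.66; it overlaps DNAJC17). DHODH, a mitochondrial enzyme that reduces ubiquinone, fell (log2 -0.58), and GCH1, the first enzyme of tetrahydrobiopterin synthesis, was not called (log2 0.08, limma adjusted p = 0.458); both were added after their values were seen. Of 28 listed ferroptosis promoters of 36, 9 rose, 8 fell and 11 were not called, with a median of 0.02 (14 higher and 5 lower at equal totals). Both lists stand beside 28.6% higher and 28.1% lower over all tested genes, and at equal totals beside 6050 higher and 3700 lower of 17200. Besides HMOX1, the gene of the lipoprotein lipase inhibitor ANGPTL4 (log2 -1.17; it overlaps RAB11B-AS1) and the acyl-CoA synthetase gene ACSL1 (log2 0.80) showed the largest called changes among the promoters that averaged 50 normalized counts or more in either group.

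**Figure D4:**
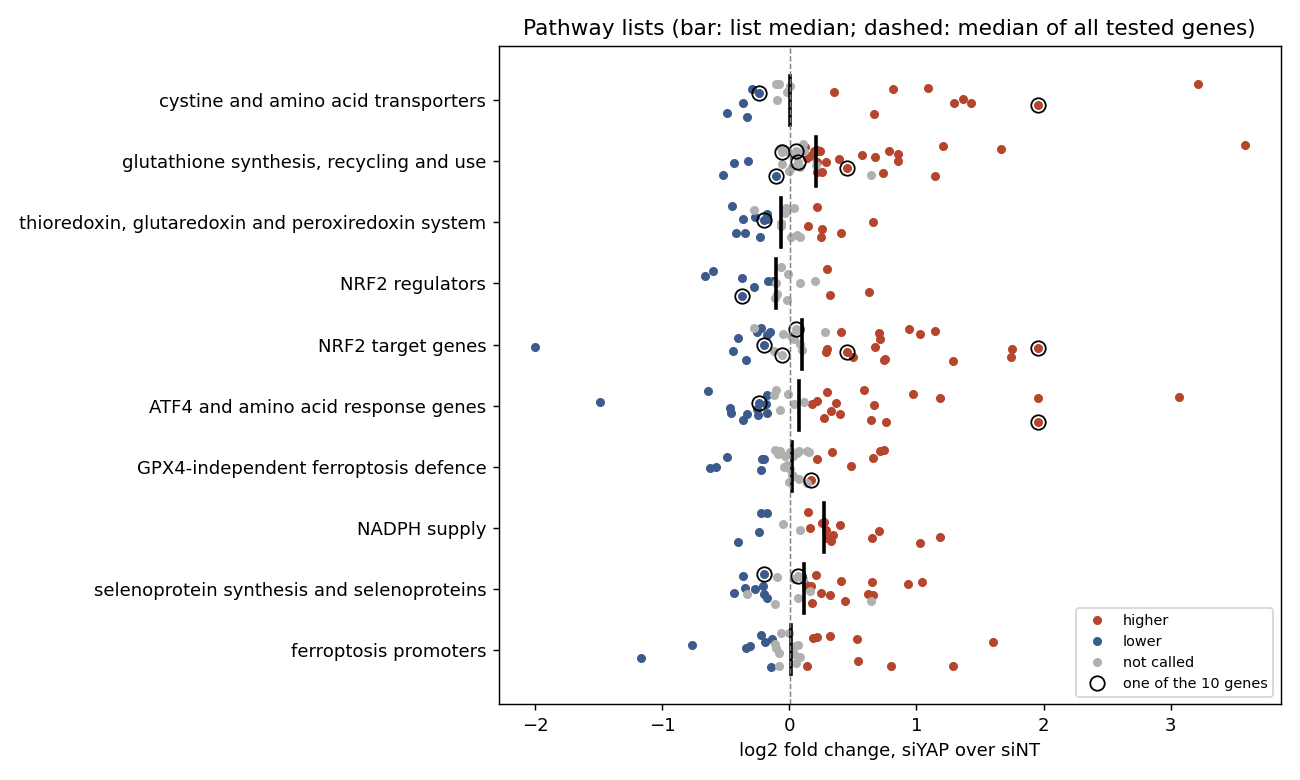
Log2 fold change of siYAP over siNT (horizontal axis) for the listed genes of 10 pathway lists, with points coloured by limma call, circles round the 10 genes and a bar at each list's median. List medians lie between -0.10 and 0.27, with the dashed median of all tested genes at 0.00. NADPH supply (0.27) and glutathione (0.21) lie farthest from it. SLC7A11 lies far to the right of the other circled genes.

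The limma adjusted p-values of the called genes named from the lists by rule were all at or below 0.000218, and those of the called genes added after their values were seen at or below 0.0124. Changes of scale matter for small differences: with equal library totals 62.1% of all called genes were higher in siYAP, against 50.4% with the authors' size factors, and the median log2 fold change of all tested genes was 0.09 rather than 0.00. Earlier work on these data linked lower expression to 3 heptamers in the 3′ UTR (TTCTTAA, then the purine-only GAGAGGA, and lastly GATAAAG). At least 1 of them was present in 1 annotated 3′ UTR of 3 of the 10 genes, SLC7A11 (1 heptamer), GCLM (2) and GSR (1), against 37.0% of 11393 genes searched. None of the 4 genes called lower holds any of them there. Their searched 3′ UTRs were 100 (SLC3A2), 395 (GSS), 480 (NFE2L2) and 1856 bases (TXNRD1) long. Those of the 3 genes with a match were 7859 (SLC7A11), 3785 (GCLM) and 1459 bases (GSR) long. A short 3′ UTR has less room for a match, and the part of the heptamers in these 10 genes was not tested. The median log2 fold change was -0.03 for genes with a heptamer and 0.00 for genes without.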

How the data were processed

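The deposited table holds a signal per gene for each of 6 poly(A) RNA-seq libraries. The submitters' processing notes name the tools FastQC, HISAT2, HTSeq and DESeq2 and list hg19 and mm9 as builds. Versions, the use of either build and strand handling are details not given in sources used here. Each deposited signal is a size-factor normalized read count, since 100% of values in every library were whole multiples of its smallest positive value (tolerance 0.01 of a read). One read was worth 0.906 to 1.21 normalized counts.

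Values were tested as log2(value + 1) with limma 3.58.1 (trend, robust) in R 4.3.3, with group alone as the design, keeping genes that reached 1 in at least 3 libraries, and called at an adjusted p under 0.05. Such fold changes understate changes of low genes. Recovered reads were tested with edgeR 4.0.16 and DESeq2 1.42.0 as alternatives. In a self-test on simulated counts (17197 genes tested), limma found 31 of the 50 genes set to a 1.2-fold change, 45 of the 50 set to 1.5-fold and all 50 set to 2-fold. It made 13 false calls. Far fewer genes were changed there than were called in the real contrast (56.8% of those tested), and dispersions were taken from the trend. These counts therefore do not give the power or error of the real contrast. Within a group, chi-square per degree of freedom between libraries was 2.75 to 7.5, above sampling noise, so none was another library sequenced again. Separate libraries made from the same culture or RNA could not be recognised by this value.

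The members and lists were chosen with earlier results of these data known. Named were the 10 genes, YAP1, WWTR1 and, per pathway list, the 3 called non-members with the largest change and a mean of at least 50 normalized counts in a group. Single cell type markers and the genes marked as added were named outside this rule. Symbols came by Ensembl identifier (16743 of 17211 matched); lengths, overlaps and coordinates are those of GENCODE 29 on GRCh38, not the authors' build. Promoters are from RefSeq.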

Additional observations from a re-analysis of the deposited data

How the results depend on the processing

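For SLC7A11, SLC3A2, GCLC, AIFM2, NFE2L2 and TXNRD1 all 16 alternatives kept the direction and the call: other scalings, filters, a pseudocount of 0.1, limma without trend, edgeR, DESeq2, the replicate block and each library left out. Their log2 ranges were 1.85 to 2.06 for SLC7A11, 0.43 to 0.54 for GCLC, 0.14 to 0.26 for AIFM2, -0.28 to -0.15 for SLC3A2, -0.21 to -0.11 for TXNRD1 and -0.39 to -0.29 for NFE2L2. GSS lost its call with TMM factors (log2 -0.10), upper-quartile factors (-0.088), equal totals (-0.020), limma without trend (-0.11), edgeR (-0.095), DESeq2 (-0.10) and the replicate block (-0.11), and lay between -0.13 and -0.085 with 1 library left out. The cause was not tested. GPX4 was called at equal totals (0.16). Over all genes, 4924 higher and 4842 lower were called without a filter, and 4376 to 4942 higher and 4380 to 4876 lower with 1 library left out. The replicate block gave 4654 higher and 4487 lower. Same-numbered libraries did not deviate together (correlations of -0.34, -0.01 and -0.07), so the numbers are not treated as pairs. The block changed no other call among the 10 genes. With 1 library left out the SLC7A11 to SLC3A2 ratio was 4.24 to 5.09 times as high in siYAP and the GCLC to GCLM ratio 1.29 to 1.34 times. With the motif on the gene's own strand alone, the ARE core was found in 2 of 7 genes and the amino acid response element in 0. Precision rests on 3 libraries a group, and the lowest group mean among the 10 genes was 369.7 normalized counts.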
